A study of Mus musculus with 9 samples.

Results

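The mRNA levels of 9 genes of tight junctions and desmosomes were followed through 3 stages of mouse ovarian surface epithelial (MOSE) cells, of 18193 genes measured on the arrays. The genes were taken by name: *Tjp1*, *F11r*, *Ocln* and *Cldn1* of the tight junction, *Dsp*, *Dsg2*, *Pkp2* and *Perp* of the desmosome, and *Epcam*, an adhesion molecule of the lateral membrane. They were measured by 25 of the 45037 probe sets. The cells came from C57BL6 mice, transformed spontaneously in culture, and form 1 heterogeneous series without an added transgene or agent. MOSE-E cells (passages 13, 14 and 15) were non-malignant, MOSE-I cells (passages 63, 71 and 73) intermediate, and MOSE-L cells (passages 136, 142 and 143) malignant. All 3 stages shared the high-glucose medium with 4% serum and supplements, and RNA was taken from cultures at 60 to 80% confluency. Each stage had 3 arrays of separate passages, so every p-value measures the spread between cultures of this single series and not between animals. Some of these passages follow each other directly, and whether the cultures were independent beyond passage is not stated. If they were not, the p-values could be too small.

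Epithelial cells are held together by junctions stacked along their lateral membranes. At the tight junction, claudins, occludin and junctional adhesion molecules seal the space between neighbours and are bound on the inside by scaffold proteins that reach the actin cytoskeleton. At the desmosome, the cadherins desmoglein and desmocollin bind across the gap between cells, and plakophilins, plakoglobin and desmoplakin tie them to keratin filaments. Ovarian surface epithelium is a mesothelial layer with loose junctions compared with most epithelia. The comparisons between stages addressed which junction genes changed on the way from non-malignant to malignant cells.

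Of the 9 genes, *Dsg2* was higher in MOSE-L than in both earlier stages, *Dsp* and *Pkp2* were lower in MOSE-I and in MOSE-L than in MOSE-E, and *Tjp1*, *F11r* and *Perp* were not called in any comparison. *Ocln*, *Cldn1* and *Epcam* stayed dim on all arrays and were not tested. Signals are linear intensities computed with MAS 5.0, scaled so that the trimmed mean of an array is 500. A probe set was tested where its highest signal over the 9 arrays was over 500, which 6 of the 9 genes and 7952 of all genes reached. Changes are differences of the mean log2(signal + 50), tested with limma and adjusted by Benjamini-Hochberg over all 13845 probe sets tested. Calls required an adjusted p no higher than 0.05 together with a size of 1 or more in either direction. Since 32.4% of all signals lay under the added 50, this scale understates the fold of dim genes. Signals of different probe sets have no common scale, so levels are compared between stages and never between genes.

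The upstream sequence of 6 of the 9 genes was found in a RefSeq table of the mouse assembly GRCm38.p6. *Dsg2*, *Pkp2* and *Perp* had no entry in it. The 250 bases before each start were searched for CACCTG or its complement CAGGTG, the E-box letters that Snail and Zeb repressors are known to bind in promoters of epithelial genes, and for AACCGGTT, the letters of the Grainyhead-like activators, which read the same on both strands. *Ocln* has 2 listed starts, so the 6 genes have 7 windows. The E-box letters stood in 3 of these 7 windows, those of *F11r*, *Epcam* and 1 of the *Ocln* starts, and in 17.2% of all 32851 windows in the table. AACCGGTT stood in none of the 6 genes and in 0.116% of all windows. A match of letters is a description of the sequence and not a measured binding site. The windows of the 3 genes with a match, and that of *Dsp*, the gene with an upstream sequence here that was called between stages, are given 5′ to 3′ on the gene's strand with the E-box letters in capitals. They lie at chr1:171437311-171437560 (plus strand) for *F11r*, chr13:100552499-100552748 (minus strand) for *Ocln*, chr17:87635729-87635978 (plus strand) for *Epcam* and chr13:38151044-38151293 (plus strand) for *Dsp*.
F11r: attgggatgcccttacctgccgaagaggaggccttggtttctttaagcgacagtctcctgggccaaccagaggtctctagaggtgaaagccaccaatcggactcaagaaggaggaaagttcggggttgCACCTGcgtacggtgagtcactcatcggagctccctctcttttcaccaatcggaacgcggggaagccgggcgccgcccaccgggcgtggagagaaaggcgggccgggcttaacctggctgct
Ocln: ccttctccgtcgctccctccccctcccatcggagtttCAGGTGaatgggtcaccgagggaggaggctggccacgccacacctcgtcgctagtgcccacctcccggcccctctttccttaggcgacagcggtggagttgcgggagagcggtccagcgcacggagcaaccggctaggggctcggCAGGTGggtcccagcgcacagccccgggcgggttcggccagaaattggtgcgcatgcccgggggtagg
Epcam: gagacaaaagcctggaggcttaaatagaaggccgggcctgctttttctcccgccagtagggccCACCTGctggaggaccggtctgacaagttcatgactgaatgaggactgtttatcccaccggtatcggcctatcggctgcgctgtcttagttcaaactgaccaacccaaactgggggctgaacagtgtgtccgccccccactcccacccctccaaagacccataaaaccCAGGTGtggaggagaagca
Dsp: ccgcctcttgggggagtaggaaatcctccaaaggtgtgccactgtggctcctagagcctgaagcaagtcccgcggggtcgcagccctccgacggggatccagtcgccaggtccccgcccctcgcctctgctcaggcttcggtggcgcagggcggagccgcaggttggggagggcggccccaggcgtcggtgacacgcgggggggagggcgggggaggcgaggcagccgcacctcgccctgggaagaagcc

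The *F11r* window holds the letters once, beginning 122 bases before the start. The *Ocln* window holds them 2 times, beginning 213 and 68 bases before the start, and a second listed *Ocln* start has a window (chr13:100552719-100552968) without them. The *Epcam* window also holds them 2 times, beginning 187 and 19 bases before the start. The windows of *Dsp*, *Tjp1* and *Cldn1* hold none. Of the genes with a match, *F11r* passed the signal filter and *Ocln* and *Epcam* did not. Of those without a match, *Dsp* and *Tjp1* passed it and *Cldn1* did not. Any relation between the letters and the signals was not tested.

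Tight junction protein 1 (*Tjp1*, also called ZO-1) is the scaffold that links claudins and occludin to actin. Its signals (probe set 1417749_a_at) were 4347, 6701 and 6157 on the MOSE-E arrays, 4097, 2839.6 and 2917 on the MOSE-I arrays, and 3785, 5372 and 4512 on the MOSE-L arrays. The MOSE-I signals all lay under the MOSE-E signals, and the MOSE-L signals overlapped both other stages. The change from MOSE-E to MOSE-I was -0.79 in log2 units (adjusted p = 0.0540 in limma), short of both thresholds. Between MOSE-L and MOSE-E it was -0.32 with a 95% interval from -0.83 to 0.19 (adjusted p = 0.330 in limma), and between MOSE-L and MOSE-I 0.47 (adjusted p = 0.143).

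The junctional adhesion molecule A (*F11r*) is an immunoglobulin-like membrane protein that binds its like on the neighbouring cell and recruits polarity proteins. Probe set 1424595_at gave 5031, 4290.4 and 4072 in MOSE-E, 4375, 6438 and 4556 in MOSE-I, and 9706, 5113 and 11315 in MOSE-L cells. All MOSE-L signals lay above all MOSE-E signals, with MOSE-L replicate 2 only just above the highest of them. The MOSE-E mean was 4465 ± 503 and the MOSE-L mean 8711 ± 3219 (SD, n = 3 each), a ratio of 1.95, and the log2 change of 0.88 (SE 0.29) had an adjusted p of 0.0418 in limma but missed the minimum size. Without MOSE-L replicate 2 the log2 change was 1.23 against MOSE-E (adjusted p = 0.00615 in limma) and 1.05 against MOSE-I (adjusted p = 0.0148), and both were called. MOSE-I and MOSE-E differed by 0.18 (adjusted p = 0.708). A second *F11r* probe set (1436374_x_at) stayed between 2.74 and 94.9 and separated no stages.

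Occludin (*Ocln*) and claudin-1 (*Cldn1*) are membrane-spanning proteins of the tight junction strand. The brighter *Ocln* probe set (1440220_at) gave 88.7, 23.2 and 64.6 in MOSE-E, 39.7, 32.8 and 108 in MOSE-I, and 95.3, 26.7 and 98.7 in MOSE-L cells. The stages overlapped fully. The brightest *Cldn1* probe set (1450014_at) gave 53.6, 46.4 and 11.3 in MOSE-E, 70.2, 62.6 and 124 in MOSE-I, and 83.5, 157 and 82.1 in MOSE-L cells. These signals were low throughout, though all MOSE-I and MOSE-L values lay above the MOSE-E values. With no filter on dim probe sets, *Cldn1* changed by 0.86 between MOSE-L and MOSE-E (adjusted p = 0.144 in limma), and no comparison of *Ocln*, *Cldn1* or *Epcam* was called. The other 3 *Cldn1* probe sets stayed at or under 78.1, and the other *Ocln* probe set at or under 66.9. Whether RNA of these genes was present cannot be read from such signals, since detection calls were not used here.

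The epithelial cell adhesion molecule (*Epcam*) marks many epithelia and carcinomas and stabilises claudins at the membrane. Its brighter probe set (1447899_x_at) gave 182, 146 and 303 in MOSE-E, 196, 105 and 32.0 in MOSE-I, and 250.3, 259 and 226 in MOSE-L cells. The MOSE-L signals lay close together and above the MOSE-I signals, but inside the range of MOSE-E. Its other probe set (1416579_a_at) stayed between 4.85 and 53.5. With no filter the log2 change of the brighter probe set between MOSE-L and MOSE-I was 1.01 (adjusted p = 0.109 in limma).

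**Figure D1:**
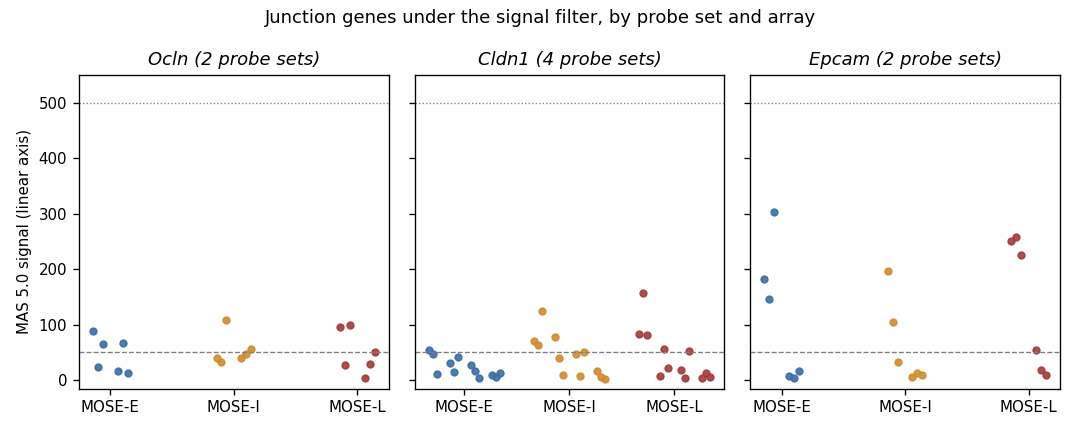
MAS 5.0 signals (linear axis, no unit) of every probe set of *Ocln*, *Cldn1* and *Epcam* by stage, with 1 point per array and the 3 arrays of a probe set side by side. All points lie under the filter of 500 (dotted line), and most lie under the added 50 (dashed line); the highest, for *Epcam*, is 303.

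Of the desmosome genes, *Dsp* and *Pkp2* of the plaque were called lower and the cadherin *Dsg2* higher between MOSE-E and MOSE-L, and the differences between their changes were not tested. Desmoplakin (*Dsp*) anchors keratin filaments to the desmosome. Its signals (1435493_at) were 445, 1416 and 824 in MOSE-E, 443, 53.7 and 37.8 in MOSE-I, and 115, 288 and 162 in MOSE-L cells. All MOSE-L and MOSE-I signals lay under the lowest MOSE-E signal, but MOSE-I replicate 1 was under it by less than 2 units of signal, far above the other MOSE-I arrays. A second probe set (1435494_s_at) gave 280.5, 869 and 497 in MOSE-E, 348, 14.5 and 42.6 in MOSE-I, and 88.2, 239.6 and 169 in MOSE-L cells. Its MOSE-I replicate 1 lay inside the MOSE-E range, and it was not called (log2 change -1.41 between MOSE-L and MOSE-E, adjusted p = 0.129 in limma, and -2.04 between MOSE-I and MOSE-E, adjusted p = 0.0679). The third (1427610_at) stayed at or under 66.1. The MOSE-E mean of 1435493_at was 895 ± 489 and the MOSE-L mean 188 ± 89.3 (SD, n = 3 each), a ratio of 0.210, with a log2 change of -1.92 (SE 0.63, adjusted p = 0.0469 in limma). Between MOSE-I and MOSE-E the change was -2.38 (adjusted p = 0.0417), and between MOSE-L and MOSE-I 0.46 (adjusted p = 0.599). Both calls stood near the threshold, and *Dsp* passed the filter through MOSE-E arrays alone. With no filter the adjusted p was 0.06 between MOSE-L and MOSE-E, which ended the call, and 0.0493 between MOSE-I and MOSE-E. With an added value of 1, a filter of 1000 or the mean over probe sets the call between MOSE-L and MOSE-E was also lost (adjusted p = 0.0783, 0.0541 and 0.0719 in limma). Between MOSE-L and MOSE-E it was lost when any of MOSE-E replicates 2 and 3, MOSE-I replicate 2, or MOSE-L replicates 1 and 3 was left out (adjusted p from 0.0531 to 0.170 in limma), and between MOSE-I and MOSE-E when any of replicates 2 and 3 of either stage was left out (adjusted p from 0.126 to 0.187).

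Plakophilin 2 (*Pkp2*) binds desmoplakin and the tails of the desmosomal cadherins. Its signals (1449799_s_at) were 802, 2488 and 3373 in MOSE-E, 304, 686 and 403 in MOSE-I, and 629, 355 and 603 in MOSE-L cells. All 6 later arrays lay under the lowest MOSE-E array, MOSE-E replicate 1. The MOSE-E mean was 2221 ± 1306, the MOSE-I mean 464 ± 198 and the MOSE-L mean 529 ± 151 (SD, n = 3 each), so *Pkp2* fell in both later stages. The log2 changes against MOSE-E were -1.99 (adjusted p = 0.0278 in limma) and -1.79 (SE 0.47, adjusted p = 0.0189), and MOSE-L differed from MOSE-I by 0.20 (adjusted p = 0.767). The probe set 1429183_at gave 460.2, 1054 and 1211, then 156, 291 and 173, then 350.1, 271 and 346. It was also called lower in both later stages (adjusted p = 0.0119 and 0.0208 in limma). This probe set passed the filter through MOSE-E arrays alone, so its calls lend no separate support. The other 2 probe sets stayed at or under 156. The call between MOSE-L and MOSE-E was lost without MOSE-E replicate 2 (adjusted p = 0.0754 in limma), MOSE-E replicate 3 (0.0808) or MOSE-L replicate 2 (0.0541). The call between MOSE-I and MOSE-E was lost without MOSE-E replicate 2 (0.138) or 3 (0.127) or MOSE-I replicate 1 (0.0649) or 3 (0.110).

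Desmoglein 2 (*Dsg2*) is the desmosomal cadherin of simple epithelia. Probe set 1439476_at gave 52.0, 53.2 and 54.4 in MOSE-E, 43.8, 60.5 and 37.6 in MOSE-I, and 340.1, 277 and 893 in MOSE-L cells. Every MOSE-L array lay far above every array of the earlier stages, which did not differ between themselves beyond their spread (log2 change -0.09, adjusted p = 0.919 in limma). The MOSE-E mean was 53.2 ± 1.18 and the MOSE-L mean 503 ± 339 (SD, n = 3 each), with a log2 change of 2.26 (SE 0.48, 95% interval 1.20 to 3.32, adjusted p = 0.00755 in limma). Against MOSE-I the log2 change was 2.35 (adjusted p = 0.00824). All MOSE-E and MOSE-I signals lay under the median signal of the arrays, which was 93.1 to 130.0, so no fold of signals is given. *Dsg2* passed the filter through MOSE-L replicate 3 alone, whose β-actin probe sets gave a 3′ to 5′ ratio of 1.83, against 1.12 to 1.45 on the other arrays (its ratio for *Gapdh* was 0.727, against 0.735 to 0.810 on the others). Without the filter and that array, an alternative chosen after seeing the data, the log2 changes were 1.79 (adjusted p = 0.00365 in limma) and 1.88 (adjusted p = 0.00415), and both were called.

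The 6 probe sets of *Dsg2* did not all show this. Probe set 1449740_s_at gave 31.9, 15.7 and 120.1 in MOSE-E, 48.4, 4.41 and 6.23 in MOSE-I, and 265, 202 and 476 in MOSE-L cells, again without overlap. Probe set 1425619_s_at was highest on MOSE-L replicates 2 and 3 (129 and 334) but gave 82.8 on MOSE-L replicate 1, under the highest MOSE-E signal of 103. The stages of 1460380_at and 1449741_at overlapped, with all signals between 25.5 and 140.3. Probe set 1426153_a_at stayed at or under 33.7.

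**Figure D2:**
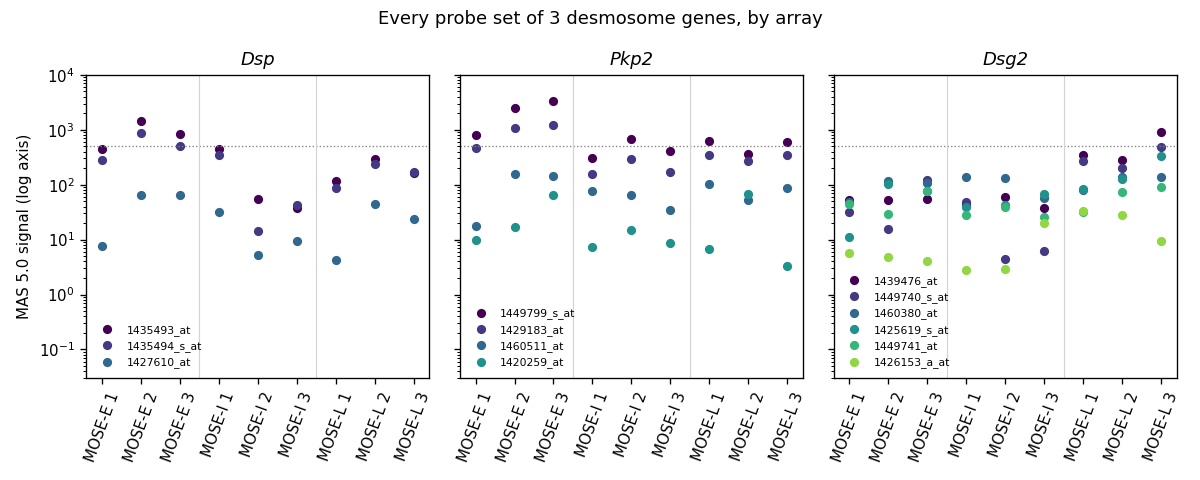
MAS 5.0 signals (log axis, no unit) of every probe set of *Dsp*, *Pkp2* and *Dsg2*, with 1 point per array in the order of stage and replicate. The brighter *Dsp* and *Pkp2* probe sets are highest in MOSE-E, and *Dsg2* probe sets 1439476_at and 1449740_s_at lie above their other arrays in MOSE-L only; the dotted line is the filter of 500.

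*Perp*, a target of p53 and p63 that encodes a membrane protein needed for desmosome assembly, varied widely within a stage. Its signals (1416271_at) were 3181, 1867 and 2188 in MOSE-E, 2261, 169.7 and 73.6 in MOSE-I, and 1341, 1358 and 1619.5 in MOSE-L cells. MOSE-I replicate 1 lay inside the MOSE-E range, and the other MOSE-I arrays lay far below both other stages. The log2 change between MOSE-I and MOSE-E was -2.60 (SE 0.82, adjusted p = 0.0670 in limma) and between MOSE-L and MOSE-I 1.90 (adjusted p = 0.100). Without MOSE-I replicate 1 they were -3.87 (adjusted p = 0.000518) and 3.17 (adjusted p = 0.00034), and both were called. All MOSE-L signals lay under all MOSE-E signals, but the change of -0.69 was not called (adjusted p = 0.557). The estimate of the spread is shared by all 3 stages, the scattered MOSE-I arrays included. The adjusted p in limma was 0.0665 with only the arrays compared and 0.0730 without MOSE-I replicate 1. Neither was a call, and the change was short of the minimum size.

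MOSE-I replicate 1, the earliest passage of that stage, thus stood with MOSE-E for *Perp* and at its lower edge for *Dsp*. It was the highest MOSE-I array for 3 of the 6 tested genes and for 40.8% of all tested genes. Its correlation with the other MOSE-I arrays was 0.939 and 0.947, against 0.985 between those. This was not particular to it: MOSE-E replicate 1 gave 0.951 and 0.955, against 0.986 between the other MOSE-E arrays. The MOSE-L arrays correlated at 0.889 to 0.934. The summed signal of 9 fibroblast marker genes was 28169 on MOSE-I replicate 1 and 80821 and 61886 on the other MOSE-I arrays, and the part of this in the junction values was not tested.

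**Figure D3:**
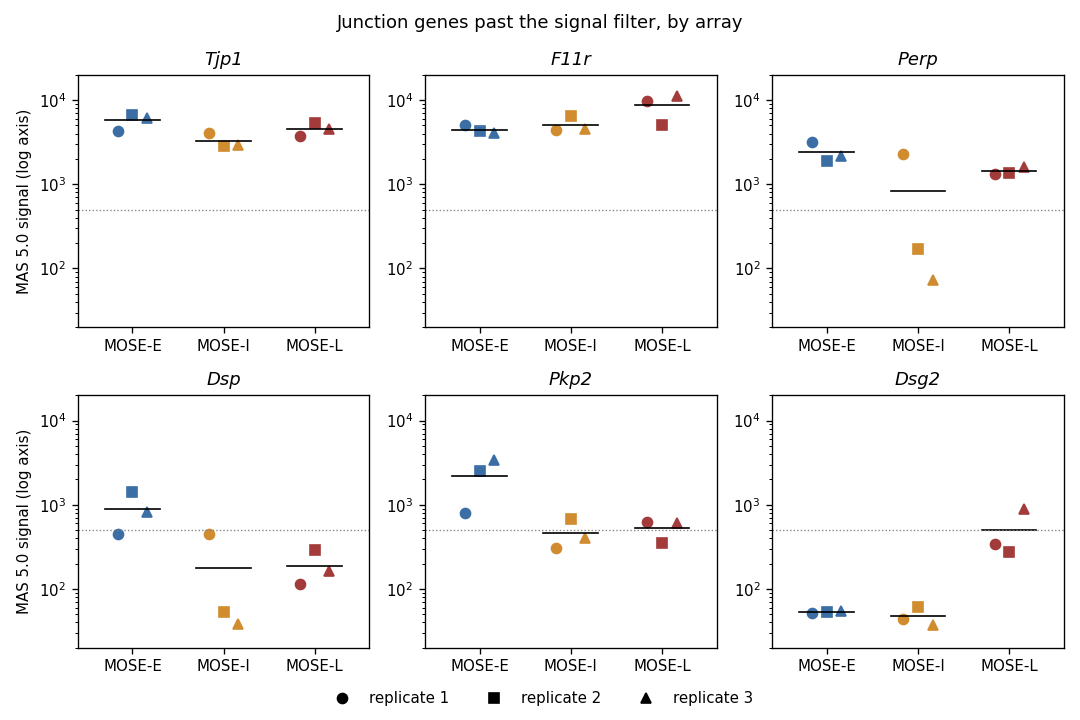
MAS 5.0 signals (log axis, no unit) of the 6 tested genes by stage, with 1 point per array, the marker shape giving the replicate, and the line the mean of 3 arrays. *Dsg2* is high in MOSE-L only, *Dsp* and *Pkp2* are highest in MOSE-E, and *Perp* and *Dsp* spread widely in MOSE-I, where replicate 1 lies apart from replicates 2 and 3; the dotted line is the filter of 500.

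Between MOSE-L and MOSE-E, 1 of the 6 tested genes was called higher and 2 lower, where 8.11% of all 7952 tested genes were called higher and 7.43% lower. Between MOSE-I and MOSE-E none was called higher (2.28% of all genes) and 2 were called lower (3.51%). Between MOSE-L and MOSE-I 1 was called higher (7.33%) and none lower (5.95%). The median log2 changes of the 6 genes were -0.51, -1.39 and 0.59 in these comparisons, beside 0.03, 0.03 and -0.02 over all tested genes. Stages did not overlap for 5 of the 6 genes between MOSE-L and MOSE-E, 3 between MOSE-I and MOSE-E and 1 between MOSE-L and MOSE-I, against 44.8%, 41.2% and 44.2% of all tested genes. The 6 genes passed the filter by their highest array: *Dsp* through MOSE-E arrays only and *Dsg2* through a MOSE-L array only, so these counts describe the genes and support nothing about the family. The comparisons share arrays, so a low MOSE-I group lowers its change against MOSE-E and raises that of MOSE-L against it.

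**Figure D4:**
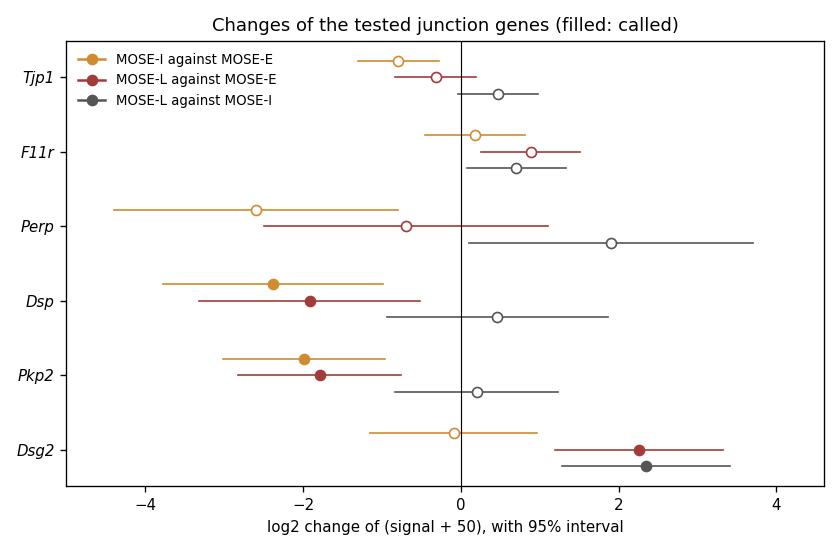
Log2 changes of (signal + 50) with their 95% intervals for the 6 tested genes in the 3 comparisons, filled where called. *Dsp* and *Pkp2* lie left of 0 in both comparisons with MOSE-E, *Dsg2* lies near 2 in both comparisons of MOSE-L, and the intervals of *Perp* are among the widest.

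Of 53 other tight junction genes listed, 50 were on the array and 24 were tested. Between MOSE-L and MOSE-E 3 rose and 1 fell, where 8.11% and 7.43% of all tested genes did. Between MOSE-I and MOSE-E 1 rose and 6 fell, where 2.28% and 3.51% did. Between MOSE-L and MOSE-I 7 rose and none fell, where 7.33% and 5.95% did. The medians were 0.06, -0.64 and 0.61, beside 0.03, 0.03 and -0.02 over all tested genes. All MOSE-I arrays lay under all MOSE-E arrays for 14 of the 24 genes, where 17.8% of all tested genes did. All MOSE-L arrays lay above all MOSE-I arrays for 14 of the 24, where 20.7% did. Both counts rest on the same MOSE-I arrays. Some of these genes passed the filter through 1 stage only, among them *Lsr* through MOSE-L arrays and *Jam2* and *Cgn* through MOSE-E arrays. The counts and medians thus describe the genes and support nothing about the family.

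The rises between MOSE-L and MOSE-E were those of a cytoplasmic linker, a tricellular junction protein and an adhesion receptor. Cingulin-like 1 (*Cgnl1*, also called paracingulin), which links junctions to the cytoskeleton, gave 217, 223 and 154 in MOSE-E, 462, 515 and 546 in MOSE-I, and 978, 1872 and 1937 in MOSE-L cells. Each stage lay above the one before, with log2 changes of 1.18 from MOSE-E to MOSE-I (adjusted p = 0.0214 in limma) and 2.68 from MOSE-E to MOSE-L (adjusted p = 8.2e-05). The lipolysis-stimulated lipoprotein receptor (*Lsr*), which marks the points where 3 cells meet, gave 134, 216 and 156 in MOSE-E, 134, 46.0 and 156 in MOSE-I, and 1582, 925 and 1308 in MOSE-L cells. It was higher in MOSE-L only, as was *Dsg2*, with log2 changes of 2.58 against MOSE-E (adjusted p = 0.000611 in limma) and 3.07 against MOSE-I (adjusted p = 0.000328). *Lsr* passed the filter through MOSE-L arrays alone, and with no filter it was still called in both comparisons. The coxsackievirus and adenovirus receptor (*Cxadr*) gave 3941, 2090.5 and 1945 in MOSE-E, 4383, 5754 and 5292 in MOSE-I, and 6962, 7382 and 12454 in MOSE-L cells, and rose by 1.75 from MOSE-E to MOSE-L (adjusted p = 0.00249 in limma).

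The fall was that of *Jam2*, a relative of *F11r* known from endothelial junctions, with 645, 517 and 392 in MOSE-E, 256, 192 and 281 in MOSE-I, and 135, 214 and 127 in MOSE-L cells. Its log2 change between MOSE-L and MOSE-E was -1.45 (adjusted p = 0.0063 in limma). *Jam2* passed the filter through MOSE-E arrays alone, and with no filter it was still called lower in MOSE-L than in MOSE-E. *F11r* and *Jam2* thus lay on opposite sides of 0 between MOSE-L and MOSE-E, and the difference between their changes was not tested. The 6 genes that fell between MOSE-E and MOSE-I were *Ildr2*, *Esam*, *Cldn15*, *Cgn*, *Amotl2* and *Mpdz*. *Ildr2*, a tricellular junction protein related to *Lsr*, gave 3575, 4094 and 3828 in MOSE-E, 1685, 827 and 583 in MOSE-I, and 7266, 7364 and 6219.6 in MOSE-L cells. It fell by 1.97 on the log2 scale to MOSE-I (adjusted p = 0.00572 in limma) and was higher by 2.82 in MOSE-L than in MOSE-I (adjusted p = 0.000254). The adhesion molecule *Esam* gave 1450.3, 1526 and 1146, then 560.5, 302 and 189, then 957, 882 and 2591, and its MOSE-I level differed from MOSE-E by -1.93 (adjusted p = 0.0206). *Ildr2*, *Esam*, *Cldn15* and *Mpdz* were also among the 7 genes called higher in MOSE-L than in MOSE-I, with *Arhgap17*, *Cgnl1* and *Lsr*. The linker cingulin (*Cgn*) and the Yap-binding scaffold *Amotl2* were not: *Cgn* gave 523, 808 and 548, then 144, 347 and 242, then 382, 493 and 317, and *Amotl2* gave 3182, 5387 and 5496, then 1705, 2588 and 1813, then 2319, 2691 and 2448. *Cgn* passed the filter through MOSE-E arrays alone, and with no filter it was still called lower in MOSE-I than in MOSE-E. All 7 calls between MOSE-L and MOSE-I stood when any single array was left out, and so did those of *Cgnl1*, *Lsr*, *Cxadr* and *Jam2* between MOSE-L and MOSE-E. Between MOSE-I and MOSE-E only *Ildr2* was called in every such run, and it was the 1 gene called when MOSE-E replicate 2, MOSE-E replicate 3 or MOSE-I replicate 3 was absent.

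Of the 20 claudins listed, *Cldn1* included, 19 were on the array and 2 passed the filter, *Cldn12* and *Cldn15*. In their brightest probe sets, the other claudins reached at most 205 on any array. Low signals were thus shared by *Cldn1* and 16 further claudins, and *Cldn12* was not called in any comparison.

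Of 15 other desmosome genes listed, 12 were on the array and 4 were tested, and 1 of these was called, lower between MOSE-L and MOSE-E, where 7.43% of all tested genes were. Plakophilin 1 (*Pkp1*), a plaque protein mostly known from stratified epithelia, gave 793, 685 and 493 in MOSE-E, 899, 35.5 and 25.4 in MOSE-I, and 28.8, 31.4 and 44.8 in MOSE-L cells. It fell between MOSE-E and MOSE-L (log2 change -3.04, adjusted p = 0.0197 in limma), a call that was lost when any 1 of the MOSE-E arrays was left out. In MOSE-I cells it was high on replicate 1 and low on replicates 2 and 3, the order seen for *Perp* and *Dsp* on the same arrays. Its change between MOSE-I and MOSE-E was not called (-1.93, adjusted p = 0.137). Medians of the 4 genes were -0.64, -0.39 and -0.25 in the comparisons of MOSE-L with MOSE-E, MOSE-I with MOSE-E and MOSE-L with MOSE-I. Over all tested genes they were 0.03, 0.03 and -0.02. All MOSE-L arrays lay above all MOSE-E arrays for 1 of the 4 genes and under them for 2, where 23.1% and 21.7% of all tested genes did. *Pkp1* passed the filter through MOSE-E arrays and MOSE-I replicate 1 only, so the medians support nothing about the family.

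**Figure D5:**
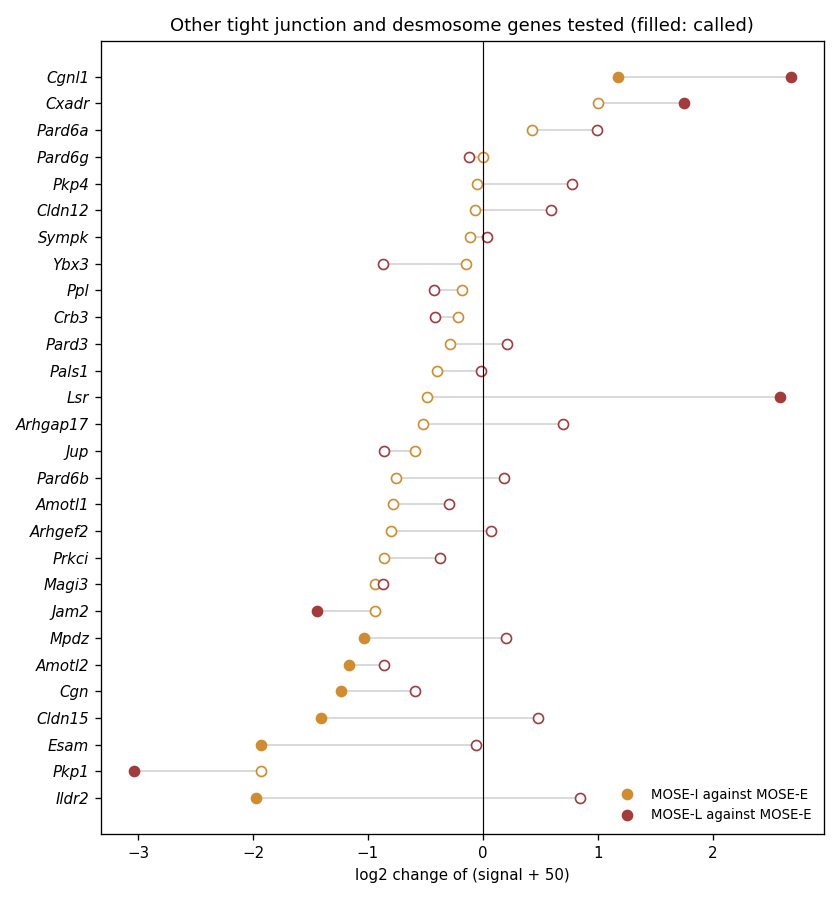
Log2 changes of (signal + 50) against MOSE-E of the 28 other tight junction and desmosome genes tested, in MOSE-I and MOSE-L cells, sorted by the MOSE-I change and filled where called. Most MOSE-I points lie left of 0, with a median of -0.56, and *Cgnl1*, *Lsr* and *Cxadr* have the MOSE-L points farthest to the right.

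Of 16 transcription factors known to act on junction genes 7 were tested and 2 were called. Between MOSE-L and MOSE-E 1 was called higher (8.11% of all tested genes) and 1 lower (7.43%), between MOSE-I and MOSE-E 1 higher (2.28%), and between MOSE-L and MOSE-I 1 lower (5.95%). *Snai2* (Slug), a repressor that binds E-boxes, gave 1907, 1588 and 757 in MOSE-E, 5323, 6138 and 5805 in MOSE-I, and 6422, 5465 and 10207 in MOSE-L cells. It rose in both later stages, by 2.08 (adjusted p = 0.00635 in limma) and 2.38 (adjusted p = 0.000703). *Twist1*, a basic helix-loop-helix factor known from mesenchymal cells, gave 548, 682 and 588, then 445, 489.9 and 577, then 69.4, 37.9 and 15.0, and fell by 2.89 on the log2 scale between MOSE-E and MOSE-L (adjusted p = 0.000127). Their part in the junction values was not tested.

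The labelled cell type was checked against 10 ovarian surface epithelium and mesothelium markers, of which 9 were tested. Their summed signal was 87042 to 96129 on the MOSE-E arrays, 61027 to 84112 on those of MOSE-I and 56551 to 74369 on those of MOSE-L. Of the 9, none was called higher and 4 were called lower between MOSE-E and MOSE-L, the keratins *Krt7*, *Krt8* and *Krt19* and the mesothelial gene *Lrrn4* (log2 changes -4.28, -1.47, -1.11 and -2.23, adjusted p = 0.000195, 0.00526, 0.0139 and 0.00621 in limma). Of all tested genes 8.11% were called higher and 7.43% lower in that comparison. All MOSE-L arrays lay above all MOSE-E arrays for 2 of the 9, *Wt1* and *Upk3b*, and under them for 5, where 23.1% and 21.7% of all tested genes did. The untested *Aldh1a2* also lay above. Between MOSE-I and MOSE-E none was called higher (2.28% of all tested genes) and 3 were called lower (3.51%). Between MOSE-L and MOSE-I 2 were called higher, *Msln* (1.90, adjusted p = 0.00408 in limma) and *Wt1* (1.09, adjusted p = 0.0194). *Krt8* was the 1 called lower (-1.75, adjusted p = 0.00326). Of all tested genes 7.33% were called higher and 5.95% lower between MOSE-L and MOSE-I. *Krt8*, whose filaments attach to desmoplakin in simple epithelia, gave at least 3534 on every array. Fibroblast markers (9 on the array, 6 tested) summed to 52166 to 125954, 28169 to 80821 and 37024 to 48791 in the same order of stages, the lowest MOSE-E sum being on replicate 1, where *Pkp2* and *Dsp* were also lowest in MOSE-E. Of the 6, 1 was called higher and 2 lower between MOSE-L and MOSE-E, where 8.11% and 7.43% of all tested genes were. The markers thus did not move together, and a sum follows its brightest genes. Granulosa cell markers (5 on the array, 1 tested) summed to 1617 to 5416, 970 to 1480.3 and 1045 to 1553. Endothelial markers (6, none tested) summed to 458 to 484, 296 to 341 and 319 to 363, with *Pecam1* at or under 88.4 on every array. Leukocyte markers (5, 1 tested) summed to 543 to 620.2, 613 to 988 and 626 to 746, with *Ptprc* at or under 51.9. The part of the marker shifts in the junction values was not tested, and in bulk RNA fewer cells that express a gene and less RNA per cell cannot be told apart.

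As a description over the 9 arrays, the tested genes whose log2 signals followed *Dsg2* most closely were *Tnfaip6*, *Fetub* and *Tcn2* (Pearson r 0.990, 0.989 and 0.988). For *Pkp2* they were *Ccn1*, *Tspan2* and *Col3a1* (0.982, 0.973 and 0.961), for *Dsp* *Naa15*, *Noct* and *Ubap2* (0.979, 0.967 and 0.955), and for *Perp* *Top2b*, *Ythdf3* and *Cdkn1a* (0.958, 0.957 and 0.938). For *Tjp1* they were *Ralgapa1*, *Urb2* and *Ammecr1* (0.986, 0.982 and 0.976), and for *F11r* *Pnpla8*, *Tmem230* and *Yipf5* (0.962, 0.960 and 0.960). Among the 15 pairs of the 6 junction genes the highest r was 0.905, between *Tjp1* and *Dsp*, and the lowest -0.50, between *F11r* and *Dsp*. All these values share the same 9 arrays in 3 stages.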

How the data were processed

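RNA of 3 stages of MOSE cells was measured on 9 Affymetrix Mouse Genome 430 2.0 arrays, 3 per stage. The authors computed the deposited intensities with MAS 5.0 with a trimmed mean of 500 as the scaling target of every array. Control probe sets (64 of 45101) were left out. The median signal per array was 93.1 to 130.0 and correlations within a stage were 0.889 to 0.986. The number of arrays limits precision. Of the remaining probe sets, 34945 named 1 gene, 932 several and 9160 none, by the platform annotation, and 34741 were matched to RefSeq by gene ID.

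Log2(signal + 50) was fitted in limma 3.58.1 (R 4.3.3), with 1 mean per stage, empirical Bayes variances with a trend and robust estimation, and Benjamini-Hochberg adjustment over the 13845 probe sets with a highest signal over 500. Figures were drawn in matplotlib 3.10.9. A gene took the brightest probe set past the filter that named it alone. The fit was tested on simulated data. The fit did not pair the arrays by replicate number. Correlations of the deviations from the stage means between arrays of equal number ran from -0.11 to 0.41. Arrays of unlike number were not compared in this way, so a pairing was not tested.

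The genes and gene lists were chosen with earlier results of these data known. Named were the 9 genes, genes of the lists called in any comparison, with values for at most 4 per list and direction of the MOSE-L change, and the 3 genes most like each tested gene. From the marker lists *Krt7*, *Krt8*, *Krt19*, *Lrrn4*, *Msln*, *Wt1*, *Upk3b*, *Aldh1a2*, *Pecam1* and *Ptprc* were named outside this rule after their values were seen. The claudin *Cldn12*, which passed the filter and was not called, was also named outside it. Tested alternatives were other added values, normalizations, filters, variance models, probe set rules and arrays, a replicate block and the methods' t-test, taken as two-sided with equal variances. Listed genes that no probe set named alone were not analysed here.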

Additional observations from a re-analysis of the deposited data

How the results depend on the processing

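The number of the 9 genes called between MOSE-L and MOSE-E was 3 as reported, and 1 with a filter of 1000, 0 with the methods' t-test with or without adjustment, 1 with no filter and without MOSE-L replicate 3 (chosen after seeing the data), and 1 to 3 without each array in turn. Between MOSE-I and MOSE-E it was 2, and 1 with quantile normalization, 0 with either t-test, 1 with no filter and without MOSE-L replicate 3, and 0 to 2 without each array. Between MOSE-L and MOSE-I it was 1, and 0 with a filter of 1000 and with either t-test, and 0 to 2 without each array. Of the other junction genes, 5 were called between MOSE-L and MOSE-E, 7 between MOSE-I and MOSE-E and 7 between MOSE-L and MOSE-I. The first became 3 with a filter of 1000, 11 with no minimum change, 1 with the adjusted t-test and 4 to 7 without each array. The second became 4 with an added value of 200, 0 with the adjusted t-test and 1 to 9 without each array, the 1 being *Ildr2* without MOSE-E replicate 2, MOSE-E replicate 3 or MOSE-I replicate 3. The third became 11 with no minimum change, 0 with the adjusted t-test and 7 to 9 without each array. A filter of 1000 leaves out *Dsg2*; the cause of the other differences was not tested.

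With the replicate number as a block, although a pairing by that number was not tested, 1 of the 9 genes was called between MOSE-I and MOSE-E. *Dsp* was lost in both comparisons with MOSE-E (adjusted p = 0.0669 and 0.057 in limma). Of 408 values of single genes under an alternative, 363 kept their direction and side of the threshold, 38 lost a call, 5 gained a call and 2 changed sign, both near 0: *Dsg2* between MOSE-I and MOSE-E was 0.012 with quantile normalization, and *Pkp2* between MOSE-L and MOSE-I was -0.033 without MOSE-I replicate 1 (-0.033 to 0.49 without each array).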

Other observations

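Desmocollin 2 (*Dsc2*), the partner cadherin of desmoglein 2, stayed under the filter and is named after its values were seen. Its signals were 21.5, 3.02 and 2.67 in MOSE-E, 4.5, 23.7 and 3.15 in MOSE-I, and 108, 91.0 and 417 in MOSE-L cells. All MOSE-L signals lay above those of the earlier stages, the order shown by *Dsg2*. With no filter it was called higher in MOSE-L than in MOSE-E (log2 change 1.90, adjusted p = 0.0127 in limma) and than in MOSE-I (1.87, adjusted p = 0.0177). With MOSE-L replicate 3 also left out, another probe set, with overlapping stages, was its brightest and was not called (-0.33 against MOSE-E, adjusted p = 0.742). Plakoglobin (*Jup*), shared by desmosomes and adherens junctions and also chosen after its values were seen, gave 732, 1013 and 764, then 648, 518 and 449, then 426, 732 and 254, and was not called in any comparison with all arrays. Without MOSE-L replicate 2 it was called lower in MOSE-L than in MOSE-E (log2 change -1.21, adjusted p = 0.0109 in limma).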
